A study of Equus caballus with 12 samples.

Results

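After the scaling given below, the genes described here had similar RNA levels in the equine heart and lung. Their levels in the liver were a small fraction of these. The genes were chosen from the expression values themselves. Counts of each library were divided by median-of-ratios size factors, which give a normalised count, and the median of the 4 libraries of each tissue was taken. A gene was a member if its heart and lung medians were both at least 200, lay within 3-fold of each other, and the lower of these medians was at least 30 times the liver median plus 1. Of 31217 genes listed, 31 met the rule. Since the rule used every comparison between tissues, the levels of the members in heart, lung and liver are given as a description, without a test.

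The heart (H, left ventricle), lung (L, caudal lobe on the right side) and liver (LR, right lobe) were those of 4 healthy young cold-blooded stallions, sampled at a slaughterhouse. The animals received no treatment, and each horse gave 1 library per tissue, so that replicate 1 of heart, lung and liver is horse 1. The tissues were bulk pieces. In such samples, fewer cells of a type and less RNA per cell cannot be told apart.

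The heart wall and the lung are both densely supplied with blood vessels. Endothelial cells line these vessels, smooth muscle cells and pericytes surround them, and a matrix of collagen, laminin and elastic fibres holds the tissue while it is stretched at each beat or breath. The liver is built mainly of hepatocytes, and its sinusoids are lined by a specialised, perforated endothelium with little basement membrane.

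The deposited files name genes by Ensembl identifiers only. Symbols were taken from supplementary tables of the study, which were shortened and list genes chosen on these same animals, so they are no independent evidence for any direction. Of the 31 members, 1 had a symbol there, PIP5K1B, and 30 are known here by identifier alone. No role is given to those 30, and since transcript lengths were not used, the order of their counts is not an order of abundance.

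Reads counted in genes ranged from 6146728 to 23474239 in heart, from 8395937 to 22247307 in lung and from 4345694 to 18142916 in liver. Cardiomyocyte markers (15 with a symbol, among them the structural genes of the sarcomere) had a summed normalised count of 990398 to 1460335 in heart. They stood at 0.0199% to 0.0405% of the heart mean in lung and at 0.0224% to 0.0392% in liver. Hepatocyte markers (17 with a symbol) summed to 2788347 to 4152168 in liver and stood at 0.0205% to 0.0595% of the liver mean in lung. In heart they stood at 0.0462%, 2.66%, 0.224% and 0.0900% in replicates 1 to 4, so heart replicate 2 stood apart from the other heart libraries. The number of members was 31 with and 31 without this library, and 29 genes were in both sets. No marker of alveolar or airway epithelium had a symbol, so the lung label could not be checked in this way.

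Across the members, the heart median ranged from 209 to 8581 normalised counts (median of members 545) and the lung median from 214 to 11032 (median 527). The liver median ranged from 0.476 to 219 (median 8.0). The lower of the heart and lung medians stood 30.5 to 314 times above the liver median plus 1, with a median of 48.3. This ratio was under 40 for 9 members, between 40 and 100 for 15 and at least 100 for 7. In heart the members together took 0.240% ± 0.0215 of all gene counts and in lung 0.784% ± 0.140, against 0.00496% ± 0.00124 in liver (mean and SD of 4 libraries each). These shares rest on library totals and not on the size factors of the rule, so heart and lung are not alike in them.

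**Figure D1:**
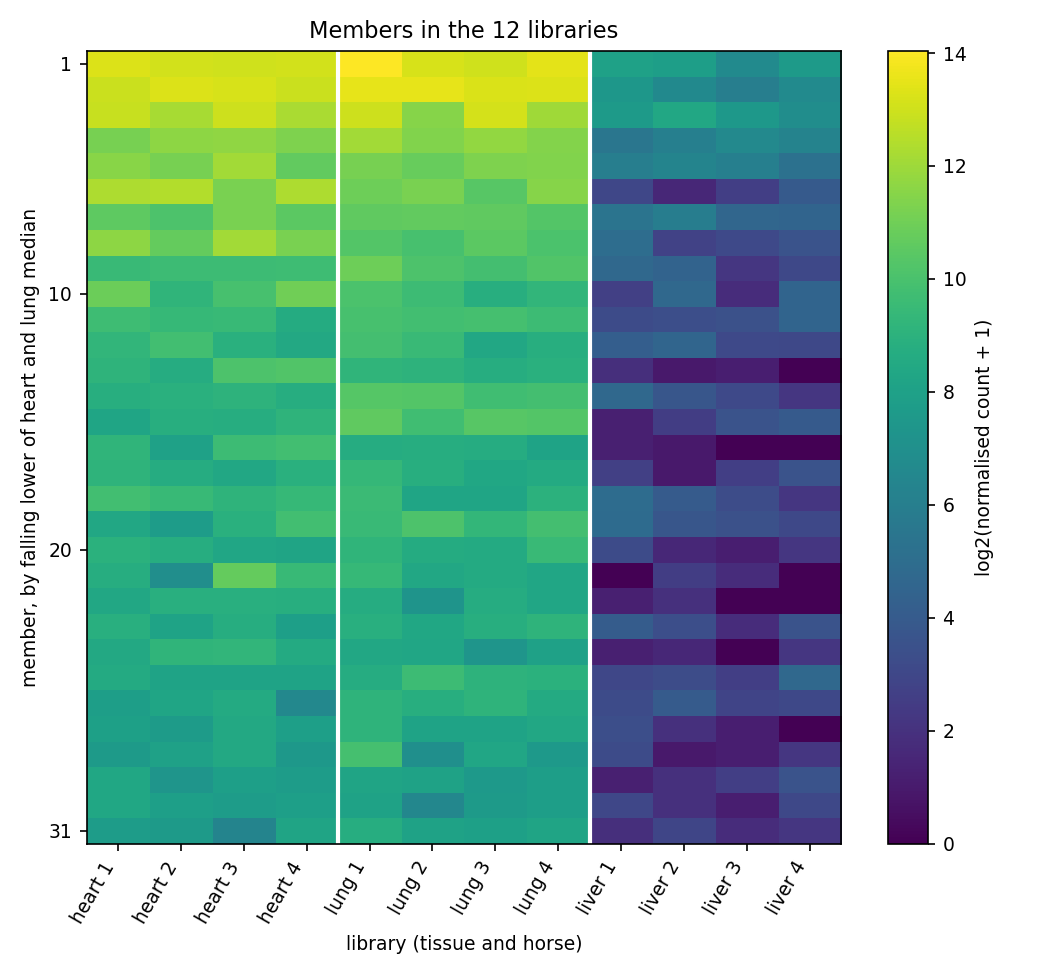
Normalised counts of the 31 members (rows, from the highest to the lowest of the lower heart or lung medians) in the 12 libraries (columns, by tissue and horse), as log2(normalised count + 1). The heart and lung columns share one range of colour for most members, and the 4 liver columns are darker in every row.

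PIP5K1B (ENSECAG00000019992) encodes type I beta phosphatidylinositol 4-phosphate 5-kinase, which makes the membrane lipid phosphatidylinositol 4,5-bisphosphate, a regulator of the actin cytoskeleton and of vesicle traffic. It had 584, 261, 783 and 882 normalised counts in heart replicates 1 to 4 and 419, 421, 417 and 283 in lung replicates 1 to 4, against 1.36, 0.953, 0 and 0 in liver replicates 1 to 4. Every heart and lung library lay far above every liver library, while the ranges of heart and lung overlapped. In the liver, the gene rested on 2 counts over 4 libraries. Pooled over libraries, its level in heart was 903 times that in liver, with a counting interval of 249.6 to 7459.5, and its level in lung 539.7 times, with an interval of 149 to 4458 (95% Clopper-Pearson intervals, which cover counting error only). The rule chose the gene by its ratio to liver, which these intervals do not take into account. The gene entered the study's tables through differential methylation between tissues, which was not analysed here.

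The members with the highest lower median were ENSECAG00000009134 and ENSECAG00000008979. ENSECAG00000009134 had 10182, 8532, 8429 and 8629.5 normalised counts in heart and 16848, 9508, 8253 and 11424 in lung, against 262, 234, 104 and 203 in liver. ENSECAG00000008979 had 7768, 9940.2, 9179 and 7599 in heart and 11922, 11815, 9549.5 and 10249.8 in lung, against 174, 101, 62.4 and 105 in liver. Both genes were plainly detected in every liver library. Their ratio to liver was 39.0 and 81.3.

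Of the members without a symbol, ENSECAG00000011762 and ENSECAG00000014203 stood furthest from liver, with ratios of 314 and 241. ENSECAG00000011762 had 5139, 5484, 2361 and 5129.9 normalised counts in heart and 1959.8, 2364, 1362 and 2829 in lung, against 6.8, 1.91, 5.0 and 14.5 in liver. ENSECAG00000014203 had 559.7, 408, 1094 and 1212 in heart and 581, 536, 426 and 476 in lung, against 2.72, 0.953, 1.25 and 0 in liver. The first gene had its heart libraries above its lung libraries apart from heart replicate 3, which lay within the lung range. For the second, heart replicates 3 and 4 lay above every lung library, while heart replicates 1 and 2 lay within or below the lung range.

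**Figure D2:**
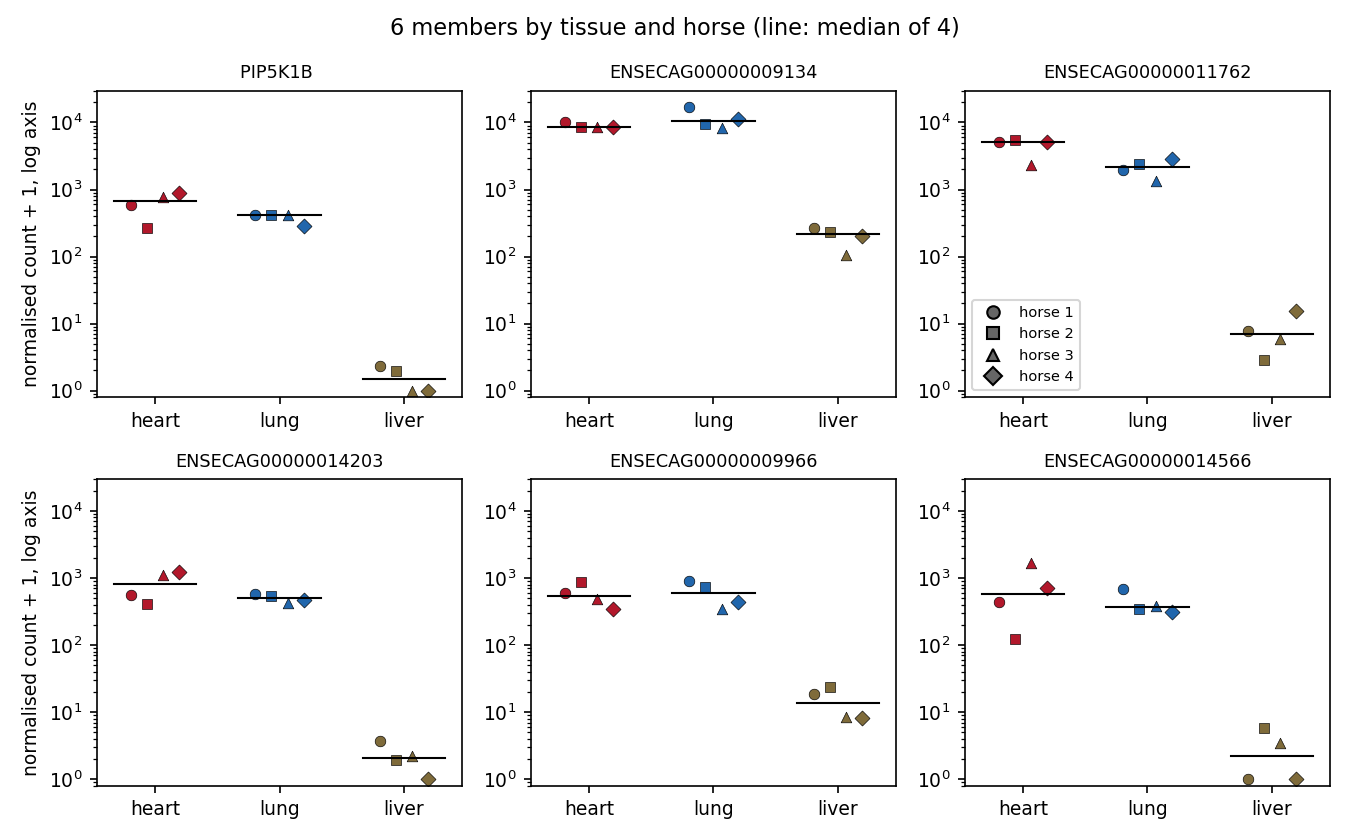
Normalised count + 1 (log axis) of 6 members in heart, lung and liver, with 1 symbol shape per horse and a line at the median of 4 libraries. Heart and lung lie close together and liver far below in all 6, and ENSECAG00000014566 shows the widest spread among heart libraries, from 124 in horse 2 to 1669 in horse 3.

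The word missing does not describe the members in liver. None of the 31 was at 0 in all 4 liver libraries, 25 had at least 1 count in each of them, and 12 had a liver median of at least 10 normalised counts. Over the 4 liver libraries, a member had 2 to 676 counts in total, with a median of 27. As a share of the lower of the heart and lung medians, the liver median amounted to 0.114% to 3.11%, with a median of 1.80%. In the shallowest library, liver replicate 4, 1 count was worth 3.63 normalised counts, and a count of 0 there allows up to 10.9. The 5 members at 0 in that library can therefore not be set apart from the members with a few counts. Liver replicate 1 was the highest liver library for 13 members, replicate 2 for 9, replicate 3 for 1 and replicate 4 for 8. The members' median share of the lower heart or lung median was 2.40% in liver replicate 1, against 1.38%, 1.20% and 1.49% in replicates 2 to 4.

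The extreme libraries are given as a description too, since the rule used the same values. For each member, the lowest of the 8 heart and lung libraries was 6.08 to 192 times the highest liver library, with a median of 20.8. In the quasi-likelihood fit of edgeR to 15436 genes (DEGs: adjusted p below 0.05 and a log2 fold change of at least 1 either way), all 31 members passed the filter on low counts. Of all genes tested, 31.1% were DEGs higher in lung than in liver (LvsLR) and 26.4% were DEGs higher in heart than in liver (HvsLR). All 31 members were called in both, which the rule fixes. Their fitted log2 fold change had a median of 6.18 in LvsLR (range 4.71 to 8.80; all genes 0.26) and of 5.95 in HvsLR (range 4.69 to 9.69; all genes 0.12).

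The threshold of 30 cut through a continuous range. The members just inside had ratios of 30.5, 31.5 and 32.0, and the genes just outside 29.5, 29.2 and 29.1. The first gene inside had medians of 266 in heart and 502 in lung, against 7.71 in liver. The first gene outside had 717 in heart and 365 in lung, against 11.4 in liver. With 15-fold in place of 30-fold the rule took 71 genes, and with 60-fold 13.

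The same rule was turned to the other pairs of tissues. Of 4178 genes with heart and lung medians at the level and within the window, 31 were low in liver, which is 0.742%. Of 3854 genes for lung and liver, 22 were low in heart (0.571%), and of 3665 for heart and liver, 10 were low in lung (0.273%). These counts are a description, since all of them come from the same 12 libraries.

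Between lung and heart, the rule allowed at most a 3-fold difference, and most members lay well inside it. The medians were within 1.5-fold for 18 members and more than 2-fold apart for 6, up to 3.00-fold. The lung median was the higher for 18 members and the heart median for 13, but this split depends on the scaling: with TMM (trimmed mean of M-values) factors it was 13 against 18, and with library totals 31 against 0. Library totals moved the median lung over heart log2 ratio of 8968 genes with at least 10 counts in every library to 1.65, against -0.00113 with median-of-ratios factors and -0.18 with TMM. Relative to that median of all genes, the members' median stood 0.12 higher with median-of-ratios factors, 0.12 with TMM and 0.11 with library totals.

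Heart and lung libraries did not overlap for 7 members, of which 5 were higher in lung and 2 in heart. Over all genes tested the share without overlap was 58.0%, and over the 4178 genes at the same level and window it was 46.2%. The rule used these values, so the members' count is a description. In the fit of lung over heart (LvsH), 24.5% of all genes were DEGs higher in lung and 20.7% were DEGs higher in heart. Of the members, 2 passed these limits towards lung and 3 towards heart, counts that the level and window of the rule largely set and from which nothing is read. Those towards lung were ENSECAG00000037711 (fitted log2 fold change 1.36) and ENSECAG00000033682 (1.02), and those towards heart ENSECAG00000011762 (-1.27), ENSECAG00000012524 (-1.48) and ENSECAG00000016679 (-1.01). ENSECAG00000033682 fell short of the limits in the model with the horse as a block, and ENSECAG00000016679 with RLE size factors, with DESeq2 and without the filter on low counts. These identifiers, and those named after them, were chosen after their values were seen. Without heart replicate 2, 3152 genes passed the limits towards heart, against 3194 with all libraries. Of the members, 6 passed them, with ENSECAG00000016679 lost and PIP5K1B, ENSECAG00000014203, ENSECAG00000014566 and ENSECAG00000021903 added.

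ENSECAG00000037711 had the largest lung excess. It had 1573, 851, 1353 and 1253 normalised counts in lung and 302, 441, 428 and 552 in heart, while the liver libraries had 1.36, 4.76, 11.2 and 14.5. The 4 lung libraries lay above the 4 heart libraries. The medians of heart and lung stood 2.9991-fold apart, just inside the 3-fold window of the rule. In 2 of the 4 horses, heart and lung lay within 3-fold of each other. ENSECAG00000012524 was the counterpart with a heart excess. It had 1253, 989, 1428 and 1088 in lung and 3266, 1712, 4414 and 2358 in heart, against 31.3, 5.72, 7.49 and 10.9 in liver, and its heart libraries lay above its lung libraries.

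All 7 members with a ratio of at least 100 had the higher median in heart, whereas of the 24 members under 100 the lung median was the higher for 18 and the heart median for 6. Under TMM factors the heart median was the higher for 7 of 7 and for 11 of 24, and under library totals for 0 of 7 and 0 of 24. Among 79 genes at the same level and window that stood 10-fold to 30-fold above liver, the lung median was the higher for 41 and the heart median for 38. Under TMM factors it was 31 for lung and 48 for heart, and under library totals 79 for lung and 0 for heart. The limit of 100 was set after the values were seen, and the split depends on it. ENSECAG00000020200, just under it with a ratio of 98.5, had medians of 494 in lung and 371 in heart. Leaving out 1 library brought ENSECAG00000022739, whose lung median was the higher, up to 104, and ENSECAG00000012524 and ENSECAG00000016679 down to 98.3 and 99.

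**Figure D3:**
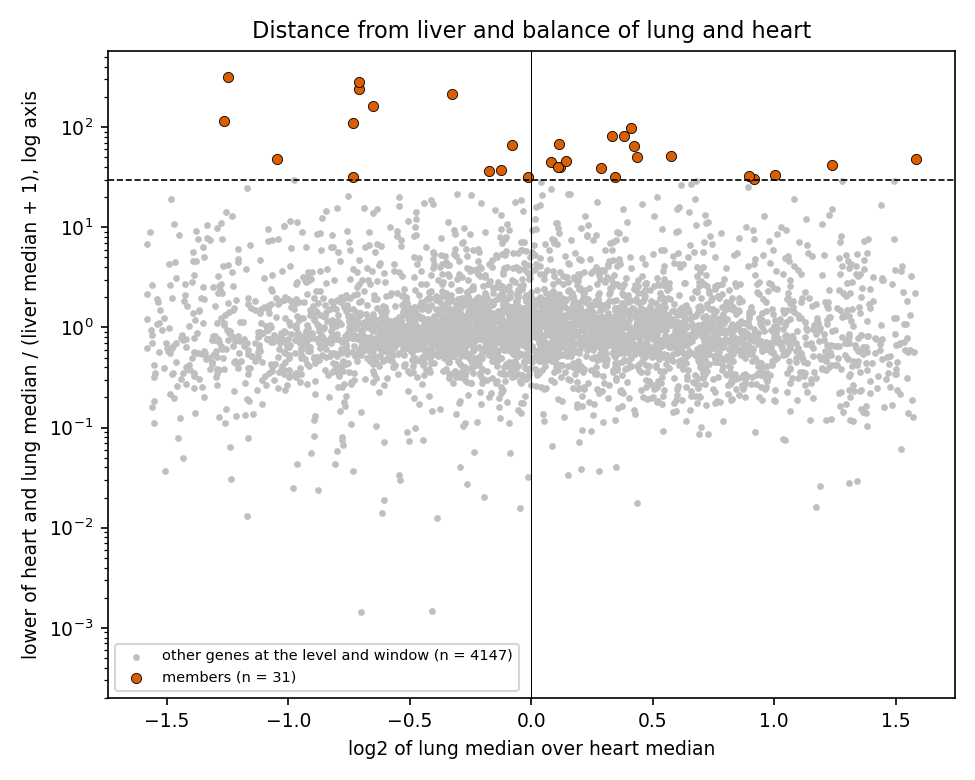
Ratio of the lower heart or lung median to the liver median plus 1 (log axis) against the log2 ratio of the lung median to the heart median, for 31 members and 4147 other genes at the same level and within the 3-fold window. The dashed line is the 30-fold limit, most other genes lie near a ratio of 1, and the 7 members at 100 or more all lie left of 0, on the side of the heart.

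Differences between horses were not used by the rule, so they could be tested. In edgeR's quasi-likelihood F-test of the horse terms, adjusted over 15436 genes, 0 of the 31 members differed between horses and 1.06% of all genes did. At an unadjusted p below 0.05 there were 3 members (9.68%), and 10.2% of all genes. DESeq2 called 1 member and 516 genes. The member with the smallest p was ENSECAG00000009966, with 604, 877, 487 and 350.0 normalised counts in heart and 916, 744, 344 and 439 in lung, against 17.7, 22.9, 7.49 and 7.27 in liver. Horses 1 and 2 were higher than horses 3 and 4 in each of the 3 tissues. Its fitted log2 differences from horse 1 were 0.17 for horse 2, -0.93 for horse 3 and -0.93 for horse 4, with an adjusted p of 0.0669, which missed the threshold. The adjusted p ranged from 0.0190 to 0.182 over the alternatives, and lay below 0.05 with DESeq2 (0.0190), without the filter on low counts (0.0431), without heart replicate 1 (0.0488) and without heart replicate 3 (0.0352).

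The spread between horses was described by the SD of log2 values over the 4 libraries of a tissue. Over the members it had a median of 0.42 in heart and 0.41 in lung. Over the 4740 genes whose heart and lung medians were both at least 200, it was 0.27 in heart and 0.19 in lung. Without heart replicate 2, the heart medians were 0.40 over the members and 0.26 over these genes. The members' SD was larger in heart than in lung for 15 of 31 (48.4%), and so it was for 68.9% of the 4740 genes. The highest library exceeded the lowest by 1.08-fold to 13.5-fold in heart (median 1.86) and by 1.22-fold to 7.77-fold in lung (median 1.92), and this ratio was above 3 for 6 members in heart and 3 in lung. No share over all genes is given beside these counts, so nothing is read from them.

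**Figure D4:**
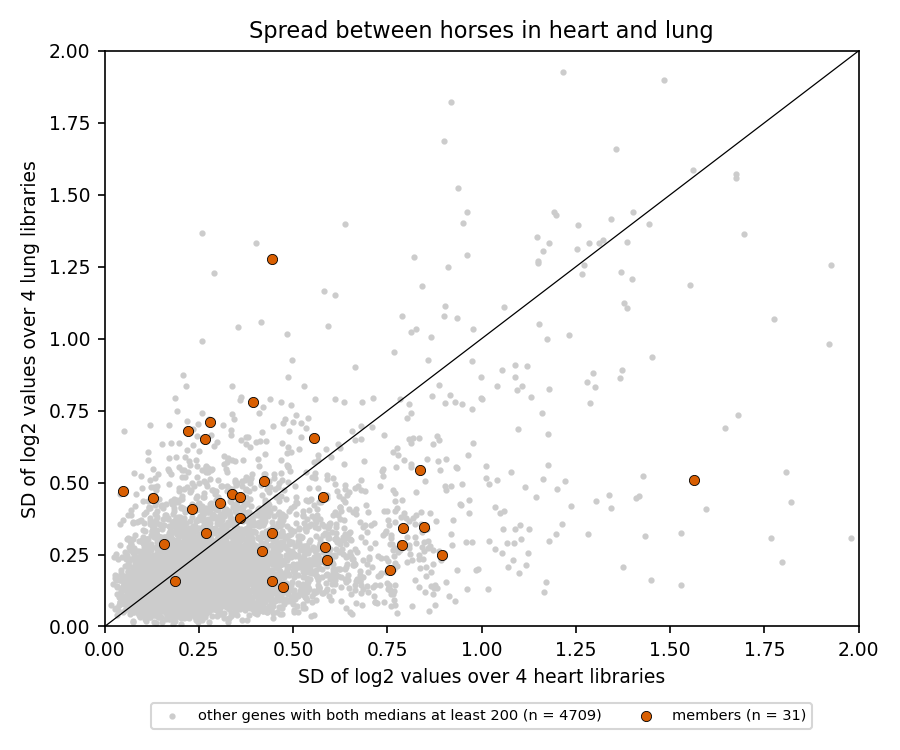
SD of log2(normalised count + 1) over 4 heart libraries (horizontal axis) and over 4 lung libraries (vertical axis) for 31 members and 4709 other genes with both medians at least 200, of which 19 lie outside the axes. The diagonal marks equal spread, 15 members lie below it, and the members at the far right and at the top are ENSECAG00000014566 and ENSECAG00000022739.

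In heart, the smallest spread was that of ENSECAG00000021497 and the largest that of ENSECAG00000014566. ENSECAG00000021497 had 745, 777, 794 and 806 normalised counts in heart, within 1.08-fold, and 1981, 1126, 919 and 1215 in lung, against 25.8, 21, 3.75 and 7.27 in liver. Its lung libraries were less alike, with a 2.15-fold range. ENSECAG00000014566 had 433, 124, 1669 and 716 in heart and 685, 345, 387 and 311 in lung, against 0, 4.76, 2.5 and 0 in liver. Its lowest heart library was replicate 2, the heart library highest in hepatocyte markers, and its heart range of 13.5-fold was the widest among the members. Without that library its heart values ranged from 433 to 1669. A link of the low value to these markers was not tested. ENSECAG00000022739 had 202, 266, 359 and 179.8 in heart and 964, 124, 318 and 188 in lung, against 8.15, 0.953, 1.25 and 3.63 in liver, so that lung replicate 1 lay 7.77-fold above lung replicate 2.

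Lung replicate 1 was the highest lung library for 20 of the 31 members (64.5%), whereas it was the highest for 38.2% of the 4740 genes at the same level. Lung replicate 3 was the lowest for 16, a count without a share over all genes beside it, from which nothing is read. In lung replicate 1 the members stood 0.36 log2 units (median of members) above the mean of their log2 values over the 4 lung libraries. All genes at the level stood 0.04 above theirs. Marker lists of other cell types were summed in the same libraries. The summed normalised count of 7 genes of vascular endothelium was 15605, 8344, 10434 and 13607 in lung replicates 1 to 4, that of 15 genes of smooth muscle and mural cells 7967, 6962, 5113 and 6302, and that of 21 matrix genes 31007, 30669, 23410 and 25519. These sums were highest in replicate 1, though for matrix genes replicate 2 was close to it. Such sums are led by the most abundant genes. Each gene was therefore also set against its lung median, as a log2 ratio. The median ratio in replicates 1 to 4 was 0.394, -0.0592, -0.231 and -0.0633 for endothelium. It was 0.0827, 0.00761, -0.302 and 0.0426 for smooth muscle and mural cells, so replicate 1 hardly stood out there. For matrix genes it was 0.280, 0.153, -0.293 and -0.116. No gene of these lists was at 0 in all lung libraries. Cardiomyocyte markers summed to 496, 281, 257 and 243 in lung, at most 0.0405% of the heart mean. Hepatocyte markers were highest in lung replicate 3 (1349, 707, 2055 and 987 in replicates 1 to 4), and nerve and glia markers in replicate 2 (829, 925, 741 and 782). The part of these cell types in the members' levels was not tested.

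The members were also looked for horse by horse. Within a single animal, the lower of heart and lung was at least 30 times the liver value plus 1 in all 4 horses for 13 members, in 3 for 10, in 2 for 6 and in 1 or none for 2. Heart and lung lay within 3-fold in all 4 horses for 20 members. The rule used these same values, so these counts are a description. The choice was then repeated on 3 horses, and the genes so chosen were read in the horse that had been left out. With horse 1 left out, 20 of 32 genes were at least 30-fold above liver in that horse, with horse 2 left out 20 of 35, with horse 3 left out 25 of 28, and with horse 4 left out 22 of 30. At least 10-fold was reached by 31, 34, 28 and 30 of these genes. The full rule was met in the left-out horse by 18, 16, 19 and 19 of them. Of all genes at the level and window in these horses, chosen or not, 0.797%, 0.542%, 0.975% and 0.904% met it. These sets are unlike, since the chosen genes already stood 30-fold above liver in the other horses. Nothing is read from the difference between the shares. The median ratio in the left-out horse was 38.8, 35.4, 71.4 and 49.9. Of the 31 members, 21 were chosen in each of the 4 choices and 1 in none of them.

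**Figure D5:**
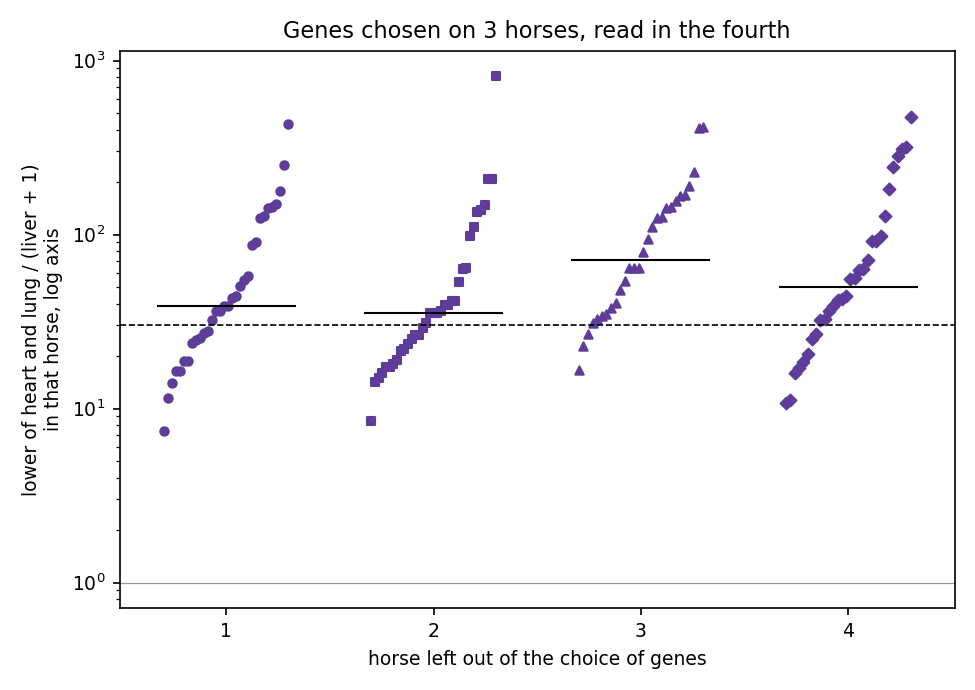
Ratio of the lower of heart and lung to liver plus 1 (log axis) in each horse, for the 32, 35, 28 and 30 genes chosen on the other 3 horses. Each point is a gene, the short line is the median (38.8, 35.4, 71.4 and 49.9 for horses 1 to 4), the dashed line is 30-fold, and no gene fell below 7.43.

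Since so few members had a symbol, named genes near the rule are given beside them. Apart from PIP5K1B these genes are no members, and no role of the members is read from them. Looser limits, chosen after the data were seen (15-fold, a window of 5-fold and a level of 100), took 120 genes, of which 13 had a symbol. NDNF, a secreted glycoprotein first described in neurons, had 192, 151, 201 and 115 normalised counts in heart and 522, 648, 399 and 805 in lung, against 0, 0.953, 1.25 and 0 in liver. Its heart median of 171 was under 200 and its lung median 3.41 times as high, which kept it out. SCARA5, a scavenger receptor for ferritin found on fibroblasts in mouse, had 544, 1059, 831 and 289.7 in heart and 368, 239, 79.2 and 153 in lung, against 0, 1.91, 3.75 and 7.27 in liver. GATA2, a transcription factor of blood and endothelial cells, had 592, 352, 856 and 340.4 in heart and 485, 443, 570.4 and 871 in lung, against 16.3, 10.5, 52.5 and 25.4 in liver. ANXA3, a calcium-dependent phospholipid-binding protein, had medians of 2233 in heart and 3200.5 in lung, against 111 in liver, and stood 19.9-fold above liver. The other named genes were FADS2 (a fatty acid desaturase), COL21A1 (a collagen), SULF2 (a heparan sulphate sulphatase), ITPR3 (an inositol trisphosphate receptor of the endoplasmic reticulum), MECOM (a zinc finger transcription factor), CRIP2 (a LIM domain protein), RILPL1 and KIF26A. Their ratios to liver ranged from 15.1 for MECOM to 27.9 for FADS2.

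The larger gene groups of the tissues that heart and lung share were counted among genes that are no members. No listed gene with a symbol was a member, so these counts describe the lists and not the members. Over all genes tested, 15.7% were DEGs higher in both heart and lung than in liver, and 14.1% of the 3551 tested genes with a symbol. Among matrix and elastic fibre genes it was 15 of 21. LTBP4, which binds latent TGF-beta in elastic fibres, had medians of 5034 in heart and 3545 in lung, against 303 in liver, and TIMP3, a matrix-bound inhibitor of metalloproteinases, 2123 in heart and 5139 in lung, against 261 in liver. COL4A1, a chain of basement membrane collagen, had 4279 in heart and 3911 in lung, against 486 in liver. NID1, which links laminin and collagen in basement membranes, differed, with 723 in heart and 1093 in lung, against 3808 in liver, and was a DEG higher in liver in both comparisons. LAMA2, a laminin chain of muscle, and DPT, a collagen-binding matrix protein, were DEGs higher in heart than in liver but lower in lung than in liver. LAMB2 and DCN were DEGs in HvsLR only and TNC in LvsLR only.

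Among genes of vascular endothelium, 4 of 7 were higher in both heart and lung. PECAM1, an adhesion molecule between endothelial cells, had medians of 5226 in heart and 8567 in lung, against 729 in liver, with log2 fold changes of 2.83 ± 0.262 in HvsLR and 3.32 ± 0.268 in LvsLR (± SE). ROBO4, a receptor that stabilises vessels, had 2154 in heart and 1065 in lung, against 103 in liver. STAB1 and STAB2, the scavenger receptors of sinusoidal endothelium, were DEGs higher in liver in both comparisons: STAB2 had 32.2 in heart and 22.2 in lung, against 827 in liver. The endothelial genes thus differed in direction.

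Among smooth muscle and mural cell genes, 8 of 15 were higher in both tissues. MYL9, the regulatory light chain of smooth muscle myosin, had medians of 3821 in heart and 1287 in lung, against 142 in liver. RGS5, a marker of pericytes that limits G-protein signalling, was a DEG higher in heart than in liver but lower in lung than in liver (medians of 1935 in heart and 23.9 in lung, against 409 in liver). The median log2 fold change of this list was 6.03 in HvsLR and 1.60 in LvsLR, and several of its genes, such as DES, are also genes of cardiac muscle.

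Of the other lists, 13 of 29 genes of the actin and LIM cytoskeleton, 6 of 14 guidance and adhesion receptors, 4 of 7 fibroblast genes, 5 of 17 transcription factors of heart and lung, 5 of 15 ion channels and calcium handling genes, 4 of 14 vasoactive receptors and 3 of 8 lipid uptake genes were higher in both heart and lung than in liver. MEIS1, a homeobox transcription factor, had medians of 144 in heart and 218 in lung, against 16 in liver. The count was 0 of 11 for WNT, BMP and growth factor signalling, 1 of 14 for cardiomyocyte markers, 0 of 2 for caveolae, 0 of 17 for hepatocyte markers, 0 of 1 for blood and immune cells and 0 of 9 for nerve and glia. The lists hold only the genes to which the study's tables gave a symbol, so a count stands for these genes and not for the pathway.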

How the data were processed

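Total RNA of heart, lung and liver of 4 horses was made into polyadenylated cDNA libraries with the TruSeq RNA kit v2, which does not mark strand, pooled, and sequenced from both ends (150 bases each) on a HiSeq 4000. The authors deposited raw read counts per gene, without normalization. The submitters' processing notes name FastQC, TopHat2, HTSeq, DESeq2 and EquCab3.0, and by the methods of the study reads were aligned to that genome with TopHat2 and counted over Ensembl genes with HTSeq before tissues were compared with DESeq2. Overlapping and antisense genes cannot be told apart in such counts (strand setting: not given in the sources used here), and reads shared by near-identical copies may be lost. Reads that HTSeq gave to no gene (26.8% to 37.9% of all reads listed in a file) stayed out of library sizes and tests. They made up 35.0% to 37.0% in heart, 36.1% to 37.9% in lung and 26.8% to 30.7% in liver. The part of them that overlapped no gene differed by tissue. It was 18.7% to 20.3% of all reads listed in heart, 28.8% to 30.2% in lung and 16.8% to 22.0% in liver.

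Size factors for the rule came from 8968 genes with at least 10 counts in all 12 libraries. Differential expression was fitted in R 4.3.3 with edgeR 4.0.16 (default filter on low counts by tissue, TMM factors, robust quasi-likelihood F-test, Benjamini-Hochberg adjustment over 15436 genes), with all 12 libraries in 1 model of tissue, and horses were tested in a model of tissue and horse. DESeq2 1.42.0 was an alternative. The fits were tested on simulated counts. Alternatives changed the scaling, the filter, the test, the limits of the rule, the libraries and the pairing. The members and gene lists were chosen with earlier results of these data known.

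Libraries with the same number come from the same horse, per the labels. As a check, each library's log2 CPM was set against the mean of its tissue and the differences were correlated across genes between tissues. The mean correlation was 0.157 for 12 pairs of libraries from the same horse (0.0867 to 0.372) and -0.0521 for 36 pairs from different horses (-0.249 to 0.128, so that the ranges overlap). The differences cancel out within a tissue, so the negative mean follows largely from the positive one and is no separate evidence. The horses are separate animals, but each tissue was sampled and prepared once per animal.

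By the rule for naming, members with a symbol were described by name, together with the 2 members of the highest lower median and the 2 of the highest ratio to liver among those without one. Other identifiers were chosen after their values were seen. A RefSeq table for a different assembly paired 0 identifiers, so genome positions and sequences were not used here. For a count of 0 in a library, the limit was set at 3 counts. The reads carried no molecular identifiers, so intervals and limits cover counting error only.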

Additional observations from a re-analysis of the deposited data

Results flagged for a closer look

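Of 51 groups of 4 libraries (16 members examined in detail and the members' share of gene counts, each in 3 tissues), 3 had 1 library far from the other libraries of its tissue, by Dixon's criterion at the 95% level. Chance alone gives such a gap in about 1 of 20 groups, and over all 31 members it was 7 of 93 groups (7.53%). ENSECAG00000009134 had 10182 normalised counts in heart replicate 1, against 8429 to 8629.5 in the other heart libraries. ENSECAG00000011762 had 2361 normalised counts in heart replicate 3, against 5129.9 to 5484 in the others. PIP5K1B (ENSECAG00000019992) had 283 normalised counts in lung replicate 4, against 417 to 421 in the other lung libraries. The 3 values lie in different libraries.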

How the results depend on the processing

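The number of members followed the limits of the rule. It was 71 with 15-fold, 13 with 60-fold, 19 with a level of 400, and 120 with 15-fold, a 5-fold window and a level of 100 together, a setting added after the data were seen. With TMM factors it was 32 (29 of them members), with means in place of medians 30 (26 members), and with library totals 35, of which 11 were members. Leaving out libraries gave 27 to 38. With library totals the lung median was the higher for 31 members, in place of 18, and the ratio to liver was 667 for ENSECAG00000011762 and 228 for ENSECAG00000012524.

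Each horse gave 1 library per tissue, so a model with the horse as a replicate block was also fitted. With this pairing, 3879 genes were DEGs higher in lung than in heart, against 3778 without it. Among the members it was 1 in place of 2, and ENSECAG00000033682 was lost. The block changed no other count of calls by more than 1.5 times. Leaving out each library in turn gave 3719 to 4168 genes and 1 to 3 members higher in lung than in heart. Higher in heart than in lung were 3127 to 3374 genes and 2 to 6 members. The test of horses gave 82 to 207 genes and 0 to 2 members (82 genes without lung replicate 1, 2 members without heart replicate 1). Of the lists, 0 to 1 cardiomyocyte markers and 0 to 1 genes of WNT, BMP and growth factor signalling were higher in both heart and lung. Between horses, DESeq2 called 516 genes and 1 member, and the fit without a filter on low counts 205 genes and 1 member. DESeq2 called 1 WNT, BMP and growth factor gene higher in both. The cause was not tested. In all, 453 of 472 counts of members, DEGs and listed genes stayed within 1.5 times. Some of these counts, such as the members called against liver, are set by the rule, so the total is no measure of robustness.

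Ratios to liver rest on few counts, since the median member had 27 counts over the 4 liver libraries. Without 1 liver library, the ratio moved to 64.2 for ENSECAG00000009966 (replicates 1 or 2), 95 for ENSECAG00000021497 (replicates 1 or 2), 104 for ENSECAG00000022739 (replicates 1 or 4), 75.4 for ENSECAG00000037711 (replicates 3 or 4) and to between 105 and 366 for ENSECAG00000014566. The lowest and highest ratio of PIP5K1B were 214 and 418.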
